A study of Raphanus sativus with 8 samples.

Results

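The unigenes described here are the radish (Raphanus sativus) transcripts whose annotated Arabidopsis counterpart is 1 of 10 cold-induced genes: KIN1, KIN2, COR15A, COR15B, COR47, ERD10, LTI78 and the transcription factors CBF1, CBF2 and CBF3. A unigene is an assembled transcript, and members were found by the Arabidopsis gene ID given in the count table, with its suffix removed. Of 78395 unigenes, 10 matched, and they covered 4 of the 10 genes: 3 unigenes for KIN2 (AT5G15970), 2 for COR15B (AT2G42530), 3 for ERD10 (AT1G20450) and 2 for LTI78 (AT5G52310). For KIN1, COR15A, COR47, CBF1, CBF2 and CBF3, 0 unigenes of the table used here carried the ID, so their levels were not analysed here. Shoots of 2 inbred lines were compared with and without a leaf spray of 10 mM gibberellic acid (GA), a hormone that promotes stem elongation and flowering. The 4 groups were NH-JS2_GA and NH-JS2, the early-bolting line with and without GA, and NH-JS1_GA and NH-JS1, the late-bolting line with and without GA. All plants, controls included, had been vernalized for 10 days from 4 days of age, kept for 2 weeks in a growth room, and collected on day 6 after the spray. Each group had 2 libraries, each made from the pooled shoots of 3 plants. The labels give bolting as the stage of both GA groups and vegetative growth as the stage of both groups without GA. Treatment and labelled stage thus cannot be told apart, and each line is a single inbred genotype. The paper, however, reports that most NH-JS1 plants sprayed with GA after 10 days of vernalization did not bolt.

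In Arabidopsis, cold rapidly induces CBF1, CBF2 and CBF3, 3 AP2/ERF factors encoded side by side, which bind the CRT/DRE element in the promoters of the COR ("cold-regulated") genes. The COR genes encode mainly hydrophilic proteins that protect membranes and proteins as tissue freezes or dries, and they also respond to drought and abscisic acid. KIN1 and KIN2, COR15A and COR15B, and COR47 and ERD10 are pairs of neighbouring, closely related genes. A unigene annotated to one of a pair may therefore stand for either.

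The libraries held 23757588 to 34165272 counts, and 65934 unigenes passed the filter on low counts and were tested. The lines separated on the first principal component (83.8% of the variance), and NH-JS2 replicate 2, the library with the fewest counts, stood apart on the second (3.96%). Of 6 shoot marker genes, 3 had unigenes, with a summed scaled count of 414600 to 716500 in every library, whereas 0 of 8 root marker genes had any. Of 6 flower marker genes, AG and SEP3 had 7 unigenes, and AP1, LFY, PI and AP3 had 0. Their summed scaled count was 328.7 to 336.3 in NH-JS2_GA, 240.6 to 267.8 in NH-JS2, 35.4 to 37.0 in NH-JS1_GA and 23.6 to 30.4 in NH-JS1. Their sum thus differed between the lines, as the members below did, and was also higher with GA in each line without overlap. The highest count of an AG unigene was 14 and that of a SEP3 unigene was 132. The part of these flower genes in the line differences was not tested. In such bulk samples, fewer cells of a type and less RNA per cell cannot be told apart.

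The members differed between the lines. Without GA, NH-JS2 was below NH-JS1 in all 3 KIN2 and all 3 ERD10 unigenes, and above it in both COR15B unigenes. Those that passed the test were all 3 KIN2 unigenes, 2 of 3 ERD10 unigenes and 1 of 2 COR15B unigenes. In edgeR's quasi-likelihood test with Benjamini-Hochberg adjustment over all 65934 unigenes, a call being an adjusted p of at most 0.05, this made 1 of the 8 tested unigenes higher and 5 lower, where 15.4% of all tested unigenes were called higher and 14.8% lower. With GA, 2 were higher (14.4% of all tested unigenes) and 4 lower (14.3%) in NH-JS2_GA against NH-JS1_GA. The libraries of the lines did not overlap for 2 higher and 6 lower of the 8 unigenes without GA, and for 2 higher and 5 lower with GA. Among all tested unigenes this was so for 32.1% higher and 32.4% lower without GA, and for 32.6% higher and 32.4% lower with GA. Under the study's criteria for a DEG (absolute log2 fold-change of at least 0.6, adjusted p of at most 0.01 and, here, a group mean of at least 500 scaled counts), 0 members were upregulated without or with GA (1.89% and 1.66% of all tested unigenes were), 3 were downregulated without GA (1.39% of all) and 2 with GA (1.27% of all). These DEGs were the KIN2 unigenes, TBIU046842 counting only without GA. The COR15B unigenes, the tested members with positive changes, had group means of at most 321.3 scaled counts. The floor of 500 thus kept them from being upregulated DEGs whatever their fold-change. The median log2 fold-change of the 8 tested unigenes was −0.48 with GA and −0.63 without GA, beside −0.01 and 0.00 over all tested unigenes. As 3 of the 8 are KIN2, 3 ERD10 and 2 COR15B unigenes, this median weights each gene by its number of unigenes. Of the 10 members, 8 passed the low-count filter, and both LTI78 unigenes did not.

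For GA, no member passed the test in either line. In NH-JS2, 0 of the 8 tested unigenes were called by edgeR (0.0637% of all tested unigenes were) and 0 by DESeq2, while 2 positive changes had an edgeR p under 0.05 before adjustment. In NH-JS1, edgeR called 0 of 8 (0.0819% of all) and DESeq2 0, and 2 positive and 2 negative changes had an edgeR p under 0.05 before adjustment. The difference between the 2 lines in their GA effect was called for 0 of 8 by edgeR (0.0592% of all) and 0 by DESeq2, and 1 unigene had an edgeR p under 0.05 before adjustment. The median log2 fold-change with GA was −0.01 in NH-JS2 and −0.42 in NH-JS1, beside −0.01 and 0.00 over all tested unigenes. The GA and the line comparisons share libraries, so their values are given side by side and not as separate evidence.

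**Figure D1:**
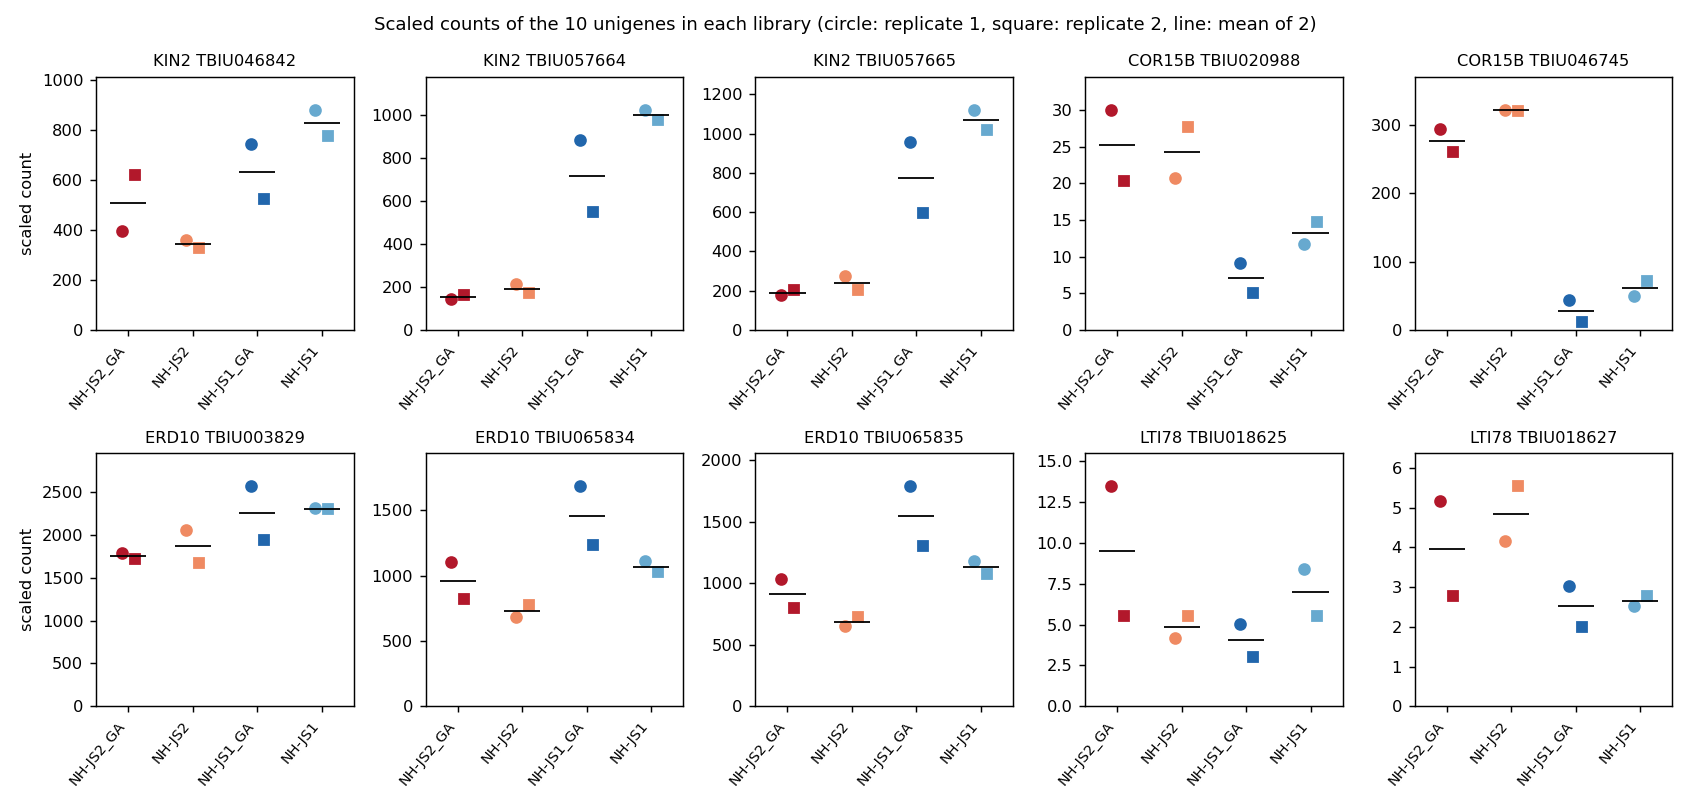
Scaled count (counts brought to a common library size) of each of the 10 unigenes in the 8 libraries, by group, on linear axes that start at 0; circles are replicate 1, squares replicate 2 and the line is the mean of 2. The KIN2 panels are lower in both NH-JS2 groups for TBIU057664 and TBIU057665, the COR15B panels are higher in both NH-JS2 groups, and the LTI78 panels stay under 14 scaled counts in every library.

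KIN2 encodes a small, hydrophilic protein that is induced by cold and abscisic acid. All 3 KIN2 unigenes had the same best protein match, the Brassica rapa gene Bra008661, with an identity of 95.45% for TBIU046842, 87.88% for TBIU057665 and 55.88% for TBIU057664. TBIU057664 had 142.6 and 160.8 scaled counts in NH-JS2_GA and 215.9 and 170.1 in NH-JS2. It had 882.9 and 551.7 in NH-JS1_GA and 1024 and 976.2 in NH-JS1. The lowest NH-JS1_GA library thus lay above both libraries of either NH-JS2 group, and the lines did not overlap. Its log2 fold-change between lines was −2.24 with GA (SE 0.221, edgeR adjusted p = 8.03e-05) and −2.37 without GA (SE 0.22, edgeR adjusted p = 5.44e-05), the smallest adjusted p of any member in both comparisons.

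TBIU057665 followed the same course. It had 179.9 and 201.4 scaled counts in NH-JS2_GA and 276.1 and 206 in NH-JS2, against 957.6 and 594.7 in NH-JS1_GA and 1120 and 1018 in NH-JS1. Every NH-JS2 library again lay below every NH-JS1 library. Its log2 fold-change was −2.02 with GA (SE 0.229, edgeR adjusted p = 0.000188) and −2.14 without GA (SE 0.228, edgeR adjusted p = 0.000127). Leaving out any 1 of the 8 libraries left both unigenes called in both line comparisons, with values from −2.56 to −1.63.

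TBIU046842, the KIN2 unigene closest to its match, differed from the other two. It had 395.9 and 619.9 scaled counts in NH-JS2_GA and 360.2 and 326.3 in NH-JS2. In the late-bolting line it had 745.5 and 522.6 in NH-JS1_GA and 879.8 and 776.4 in NH-JS1. Without GA the lines did not overlap, whereas with GA NH-JS2_GA replicate 2 lay above NH-JS1_GA replicate 2. The log2 fold-change between lines was −0.32 with GA (95% interval −0.82 to 0.19, edgeR adjusted p = 0.341) and −1.27 without GA (SE 0.228, edgeR adjusted p = 0.00283).

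With GA, TBIU046842 was higher in both NH-JS2_GA libraries than in either NH-JS2 library, and lower in both NH-JS1_GA libraries than in either NH-JS1 library. The log2 fold-change was 0.57 in NH-JS2 (SE 0.23, edgeR adjusted p = 0.547) and −0.39 in NH-JS1 (SE 0.22, edgeR adjusted p = 0.714). The difference between the 2 GA effects was 0.95 on the log2 scale (95% interval 0.23 to 1.67), with an unadjusted p of 0.0157 and an edgeR adjusted p of 1. It was between 0.59 and 1.25 when each library was left out in turn, and no fit called it. For TBIU057664 and TBIU057665 the 2 GA effects had the same sign in both lines, none of them called. In NH-JS2 the log2 fold-changes were −0.35 for each, and in NH-JS1 they were −0.48 for TBIU057664 and −0.46 for TBIU057665.

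The make-up of the KIN2 counts differed between libraries. TBIU046842 made up 55.1% and 63.1% of the summed KIN2 counts in NH-JS2_GA and 42.3% and 46.5% in NH-JS2, against 28.8% and 31.3% in NH-JS1_GA and 29.1% and 28% in NH-JS1. The share was highest in NH-JS2_GA and did not overlap between the lines, while NH-JS1_GA and NH-JS1 overlapped. The ratio of TBIU057664 to TBIU057665 within a library was 0.782 to 0.826 in the 4 libraries of NH-JS2_GA and NH-JS2 and 0.914 to 0.959 in the 4 of NH-JS1_GA and NH-JS1. These unigenes share a match, and reads from near-identical copies may be split or counted between them, so that their separate levels are uncertain. Summed over the 3 unigenes, KIN2 had a log2 fold-change of −1.32 with GA (SE 0.22, edgeR adjusted p = 0.0034) and −1.92 without GA (SE 0.224, edgeR adjusted p = 0.00053).

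**Figure D2:**
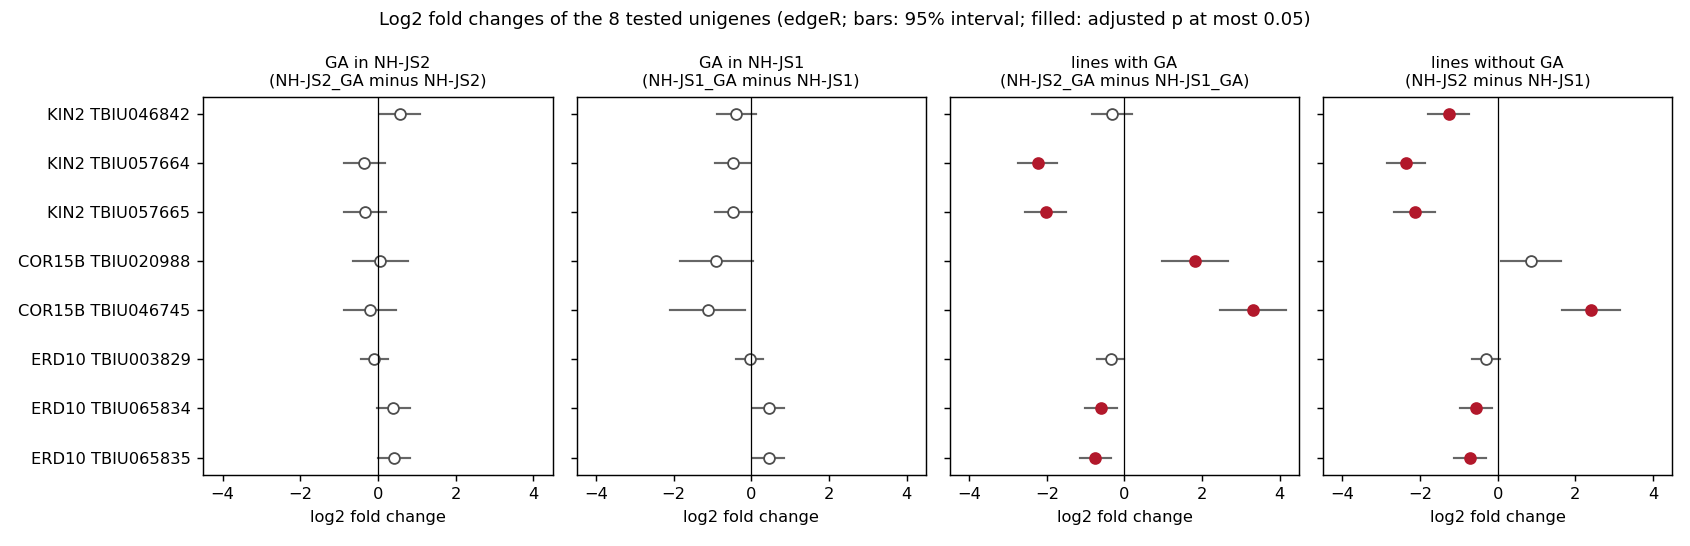
Log2 fold-change of the 8 tested unigenes in each of the 4 comparisons, with 95% intervals from the edgeR fit; filled points have an adjusted p of at most 0.05. The filled points are confined to the 2 line comparisons, where KIN2 TBIU057664 lies at −2.24 with GA and −2.37 without GA, and COR15B TBIU046745 at 3.32 with GA and 2.41 without GA.

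COR15B encodes a chloroplast stroma protein that in Arabidopsis protects chloroplast membranes against freezing. Its 2 unigenes matched Brassica rapa genes with consecutive ID numbers, at 88.81% identity for TBIU046745 and 93.98% for TBIU020988, and they ran opposite to KIN2. TBIU046745 had 293.6 and 260.5 scaled counts in NH-JS2_GA and 321.8 and 320.8 in NH-JS2. In NH-JS1_GA it had 43.4 and 12 scaled counts, and in NH-JS1 it had 49.6 and 71.8. The lines were far apart with no overlap, and the 2 NH-JS1_GA libraries differed by a larger factor than those of any other group.

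Without GA, NH-JS2 exceeded NH-JS1 in TBIU046745 by a log2 fold-change of 2.41 (SE 0.333, edgeR adjusted p = 0.000636). With GA the log2 fold-change was 3.32 (SE 0.376, edgeR adjusted p = 0.000188). That value depended on the spread within NH-JS1_GA, at 4.52 without NH-JS1_GA replicate 1 and 2.67 without NH-JS1_GA replicate 2, although every fit that left out a library still called it. The GA effect was −0.21 in NH-JS2 (95% interval −0.89 to 0.46, edgeR adjusted p = 0.896) and −1.13 in NH-JS1 (95% interval −2.08 to −0.17, edgeR adjusted p = 0.569). The difference between these 2 effects was 0.91 (SE 0.514, edgeR adjusted p = 1).

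TBIU020988 was a low-count unigene with the same direction. It had 30 and 20.3 scaled counts in NH-JS2_GA and 20.8 and 27.6 in NH-JS2, against 9.09 and 5.01 in NH-JS1_GA and 11.8 and 14.7 in NH-JS1. The 2 lines did not overlap, whereas NH-JS2_GA spanned both NH-JS2 libraries. The log2 fold-change was 1.81 with GA (SE 0.374, edgeR adjusted p = 0.00619) and 0.85 without GA (SE 0.337, edgeR adjusted p = 0.0928). The call with GA was lost without NH-JS1_GA replicate 2, where the log2 fold-change was 1.45 and the edgeR adjusted p 0.0504, in a range of 0.00717 to 0.0504 over the 8 libraries left out.

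With COR15B higher and KIN2 lower in NH-JS2, their ratio within a library differed between the lines. The ratio of COR15B TBIU046745 to KIN2 TBIU057665 was 1.63 and 1.29 in NH-JS2_GA and 1.17 and 1.56 in NH-JS2. It was 0.0454 and 0.0202 in NH-JS1_GA and 0.0443 and 0.0706 in NH-JS1. This ratio needs no scaling between libraries, and it separated the lines without overlap but not the GA groups from those without GA. Relative to KIN2 TBIU046842, TBIU046745 was at 0.742 and 0.42 in NH-JS2_GA and 0.893 and 0.983 in NH-JS2, against 0.0583 and 0.023 in NH-JS1_GA and 0.0564 and 0.0925 in NH-JS1. That ratio also separated the lines, was lower in NH-JS2_GA than in NH-JS2 without overlap, and overlapped between NH-JS1_GA and NH-JS1. The 2 COR15B unigenes did not differ between lines by the same factor, since the ratio of TBIU020988 to TBIU046745 was 0.0645 to 0.102 in the NH-JS2_GA and NH-JS2 libraries and 0.205 to 0.417 in the NH-JS1_GA and NH-JS1 libraries. Summed over both unigenes, COR15B had a log2 fold-change of 3.11 with GA (SE 0.373, edgeR adjusted p = 0.000642) and 2.2 without GA (SE 0.338, edgeR adjusted p = 0.00221).

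**Figure D3:**
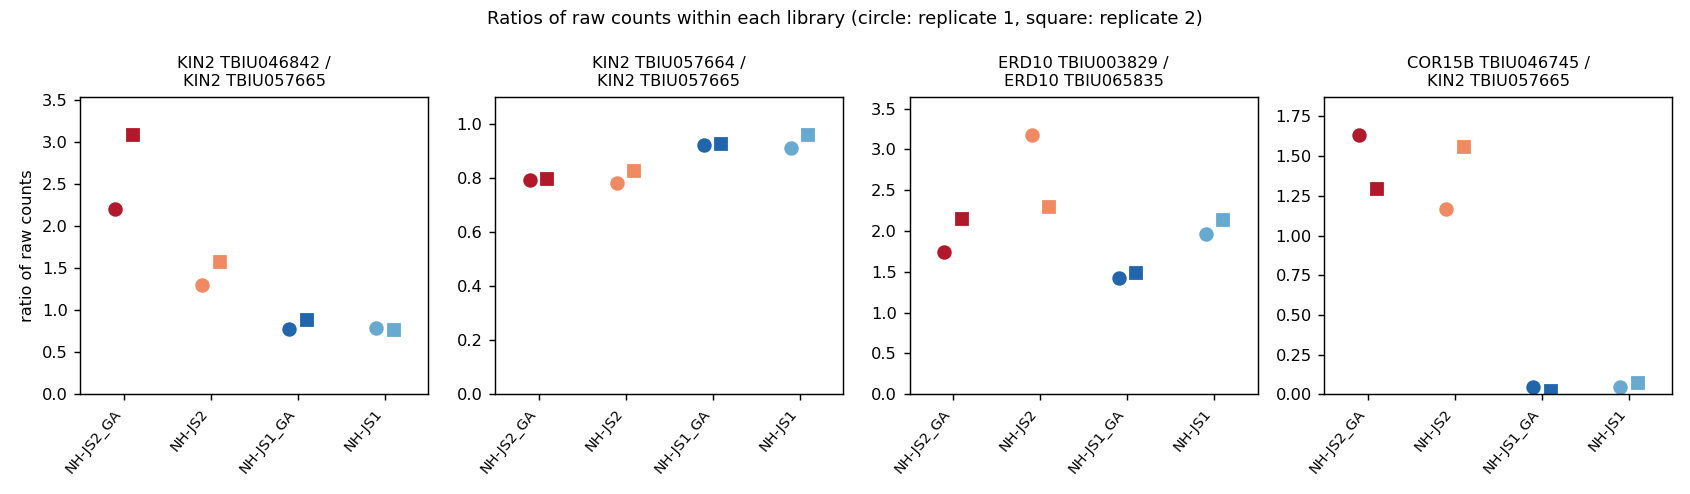
Ratios between pairs of member unigenes within each of the 8 libraries, by group, on linear axes that start at 0; circles are replicate 1 and squares replicate 2. KIN2 TBIU046842 relative to TBIU057665 is at 2.2 and 3.08 in NH-JS2_GA and at 0.763 to 0.879 in the 4 NH-JS1_GA and NH-JS1 libraries, and COR15B TBIU046745 relative to KIN2 TBIU057665 is above 1 only in the 4 libraries of NH-JS2_GA and NH-JS2.

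ERD10 encodes an acidic dehydrin, a chaperone-like protein induced by cold and dehydration. Its 3 unigenes had 3 different Brassica rapa entries as their best match, at 88.52% identity for TBIU003829, 83.5% for TBIU065834 and 73.26% for TBIU065835. TBIU065835 had 1033 and 799.1 scaled counts in NH-JS2_GA and 649.7 and 725.9 in NH-JS2. In NH-JS1_GA it had 1788 and 1304, and in NH-JS1 1181 and 1078. NH-JS2 libraries were the lowest and NH-JS1_GA libraries the highest, and no groups overlapped.

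TBIU065835 was lower in the early-bolting line, with a log2 fold-change of −0.76 with GA (SE 0.175, edgeR adjusted p = 0.0109) and −0.72 without GA (SE 0.177, edgeR adjusted p = 0.0143). The call without GA was lost without NH-JS1 replicate 1 (edgeR adjusted p = 0.0844) or NH-JS2 replicate 1 (0.0638). The call with GA was lost without NH-JS1_GA replicate 1 (edgeR adjusted p = 0.0785) or NH-JS2_GA replicate 2 (0.0948).

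TBIU065834 ran close beside it, with 1102 and 821.3 scaled counts in NH-JS2_GA and 687.1 and 772.9 in NH-JS2. In NH-JS1_GA it had 1682 and 1231, and in NH-JS1 1114 and 1024. The log2 fold-change between lines was −0.60 with GA (SE 0.18, edgeR adjusted p = 0.0355) and −0.55 without GA (SE 0.182, edgeR adjusted p = 0.0496). Both calls lay near the threshold, and each was lost in 4 of the 8 fits that left out a library, with edgeR adjusted p of 0.0287 to 0.196 without GA and 0.0162 to 0.239 with GA over the 8. Without GA, leaving out any library of NH-JS2 or NH-JS1 ended the call, as did subtracting 1 from every count (edgeR adjusted p = 0.0501). With GA, it ended without NH-JS2_GA replicate 2, NH-JS1_GA replicate 1 or either NH-JS1 library, and in a fit of only the groups compared (edgeR adjusted p = 0.0524). The ratio of TBIU065834 to TBIU065835 was 1.03 to 1.07 in the NH-JS2_GA and NH-JS2 libraries and 0.941 to 0.95 in the NH-JS1_GA and NH-JS1 libraries, so that the reads behind these 2 unigenes may be shared.

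Both unigenes were higher with GA in each line, with no overlap between GA and control libraries of a line. In NH-JS2 the log2 fold-change was 0.41 for TBIU065835 and 0.40 for TBIU065834, with edgeR adjusted p of 0.564 and 0.579. In NH-JS1 it was 0.45 for each (SE 0.173 for TBIU065835 and 0.179 for TBIU065834), with edgeR adjusted p of 0.577 and 0.594. None of these passed the test. Over the 8 tested members, libraries with and without GA did not overlap for 3 higher and 3 lower unigenes in NH-JS2 and for 2 higher and 5 lower in NH-JS1. Among all tested unigenes this was so for 18.4% higher and 19.7% lower in NH-JS2 and for 21.2% higher and 22.1% lower in NH-JS1.

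TBIU003829 was the member with the most counts. It had 1792 and 1717 scaled counts in NH-JS2_GA and 2061 and 1670 in NH-JS2, against 2564 and 1935 in NH-JS1_GA and 2317 and 2297 in NH-JS1. NH-JS1_GA spanned both NH-JS1 libraries and NH-JS2 spanned both NH-JS2_GA libraries, while the lines did not overlap at either treatment. The log2 fold-change between lines was −0.36 with GA (95% interval −0.71 to −0.01, edgeR adjusted p = 0.124) and −0.31 without GA (95% interval −0.66 to 0.05, edgeR adjusted p = 0.181). The line difference with GA passed the test only without NH-JS1_GA replicate 2, at −0.54 (edgeR adjusted p = 0.0417). The GA effect was −0.09 in NH-JS2 (95% interval −0.44 to 0.27) and −0.04 in NH-JS1 (95% interval −0.39 to 0.32).

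Relative to TBIU065835, TBIU003829 was lower with GA in each line. Their ratio was 1.74 and 2.15 in NH-JS2_GA, against 3.17 and 2.3 in NH-JS2. It was 1.43 and 1.48 in NH-JS1_GA, against 1.96 and 2.13 in NH-JS1. Within each line the GA libraries lay below those without GA, a difference that was not tested. Summed over its 3 unigenes, ERD10 had a log2 fold-change of −0.54 with GA (SE 0.146, edgeR adjusted p = 0.0326) and −0.48 without GA (SE 0.147, edgeR adjusted p = 0.0441).

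LTI78, also called RD29A, is a hydrophilic protein gene whose promoter served to define the CRT/DRE element. Its 2 unigenes shared 1 Brassica rapa match, at 65.22% and 63.08% identity, and were close to the lowest count of the table, which is 1. TBIU018625 had raw counts of 13 and 6 in NH-JS2_GA and 4 and 4 in NH-JS2, against 5 and 3 in NH-JS1_GA and 10 and 6 in NH-JS1. TBIU018627 had raw counts of 5 and 3 in NH-JS2_GA and 4 and 4 in NH-JS2, against 3 and 2 in NH-JS1_GA and 3 and 3 in NH-JS1. Neither passed the low-count filter with all libraries, and with no filter neither was called in either line comparison or for GA (edgeR adjusted p of 0.131 for TBIU018625 and 0.631 for TBIU018627 between lines with GA). TBIU018625 entered the test in several fits that left out a library. Without replicate 2 of NH-JS2_GA, its log2 fold-change of NH-JS2_GA against NH-JS1_GA was 1.71, a value that rests on the single library with 13 counts. In the other such fits that log2 fold-change was 0.87 to 1.60. Summed over both, LTI78 had a log2 fold-change of 1.00 with GA (SE 0.489, edgeR adjusted p = 0.189) and −0.05 without GA (SE 0.488, edgeR adjusted p = 0.959). Summing each gene's unigenes thus left KIN2 and ERD10 lower, COR15B higher and LTI78 not called in both line comparisons.

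The 2 libraries of NH-JS1_GA differed for the members as a set. All 8 tested unigenes were lower in NH-JS1_GA replicate 2 than in replicate 1, with a median ratio of 0.663, whereas over all tested unigenes 49.5% were lower and the median ratio was 1. In the other groups the members' median ratio of replicate 2 to replicate 1 was 0.923 in NH-JS2_GA, 0.951 in NH-JS2 and 0.937 in NH-JS1. The GA effects in NH-JS1 rest on these libraries, and no member was called for GA in NH-JS1 with either of them left out. Without NH-JS2 replicate 2, the library that stood apart, the line comparison without GA called 1 member higher and 4 lower.

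Across the 8 libraries, on the scale of log2 CPM (counts scaled to library size), some unigenes of a gene moved closely together and others less so. Pearson's r was 0.999 between KIN2 TBIU057664 and TBIU057665, 0.992 between ERD10 TBIU065834 and TBIU065835 and 0.967 between the COR15B unigenes. It was 0.818 and 0.821 between KIN2 TBIU046842 and the other KIN2 unigenes, although all 3 share a match, and 0.618 and 0.669 between ERD10 TBIU003829 and the other ERD10 unigenes. These 8 points fall into 2 lines of 4 libraries, so that r mostly describes the line difference. The 3 annotated genes outside the group whose pattern was most like that of ERD10 TBIU003829 over the 8 libraries were the nitrate transporter NRT1.1 (TBIU012745, r = 0.989), the adenine nucleotide transporter ADNT1 (TBIU002702, r = 0.982) and the rhomboid-like protein RBL3 (TBIU052312, r = 0.979). NRT1.1 had 229.5 and 194 scaled counts in NH-JS2_GA and 322.8 and 192.2 in NH-JS2, against 479.8 and 239.3 in NH-JS1_GA and 386.9 and 408.9 in NH-JS1. As for TBIU003829, the highest library was NH-JS1_GA replicate 1 and the lowest was NH-JS2 replicate 2. With 0 unigenes for CBF1, CBF2 and CBF3, the same could not be done for a CBF gene.

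Regulators that act upstream of the CBF genes included unigenes called in either direction. Of 13 such genes, 12 had unigenes and 11 had unigenes that were tested, 59 in all. Without GA, edgeR called 3 of the 59 higher and 8 lower in NH-JS2, where 15.4% of all tested unigenes were called higher and 14.8% lower. With GA it called 6 higher and 5 lower in NH-JS2_GA, where 14.4% and 14.3% of all were. None of these 4 counts was a larger share of the list than of all tested unigenes. Over the 59 unigenes the median log2 fold-change was −0.04 with GA and −0.02 without GA, where all tested unigenes had −0.01 and 0.00. The phytochrome-interacting factor PIF3, which represses CBF genes in Arabidopsis, had 5 tested unigenes, of which 3 were called lower in both comparisons. TBIU061019 and TBIU061020, named after their values were seen, were called in neither. Their log2 fold-changes were −0.27 and −0.09 with GA and 0.07 and 0.01 without GA. PIF3 TBIU022386 averaged 217.9 ± 20.7 scaled counts in NH-JS2 and 355.3 ± 23.2 in NH-JS1 (SD, n = 2 each; log2 fold-change −0.70, edgeR adjusted p = 0.00588). PIF3 TBIU022387 gave nearly the same values (log2 fold-change −0.70, edgeR adjusted p = 0.00628). With GA, they had log2 fold-changes of −0.88 and −0.89 (edgeR adjusted p = 0.00178 and 0.00184).

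ICE2, a bHLH activator related to the CBF3 activator ICE1, had 3 tested unigenes, of which 2 were called lower in both comparisons. TBIU034869, named after its values were seen, was not called, with log2 fold-changes of 0.07 with GA and 0.02 without GA. Of the 4 tested ICE1 unigenes, none was called in either line comparison. ICE2 TBIU009705 averaged 66.8 ± 12.6 scaled counts in NH-JS2_GA and 136.8 ± 4.83 in NH-JS1_GA (SD, n = 2 each; log2 fold-change −1.03, edgeR adjusted p = 0.00277). The kinase MPK6, which destabilizes ICE1 in Arabidopsis, went the other way in TBIU010474, with 106.9 and 102.3 scaled counts in NH-JS2 and 38.7 and 37.8 in NH-JS1. Its log2 fold-change was 1.38 with GA (edgeR adjusted p = 0.000357) and 1.45 without GA (edgeR adjusted p = 0.000261). Of 8 tested MPK6 unigenes, edgeR called 3 higher with GA and 2 higher without GA, and the rest were not called. Among the other regulators, the 1 tested MPK3 unigene and 1 of 4 tested HOS1 unigenes were called lower without GA. OST1, the abscisic acid-signalling kinase that stabilizes ICE1, was mixed. Of its 5 tested unigenes, 1 was called higher and 1 lower without GA, and 3 higher with GA. OST1 TBIU056562 averaged 77.8 ± 10.3 scaled counts in NH-JS2 and 133.2 ± 12.6 in NH-JS1 (SD, n = 2 each; log2 fold-change −0.77, edgeR adjusted p = 0.00876). The repressor MYB15 had 6 unigenes with raw counts of 1 to 3 in every library, and 0 of them were tested.

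Other transcription factors induced early by cold or drought numbered 10 genes, of which 9 had unigenes and 7 had unigenes that were tested, 18 in all. Of these, edgeR called 2 higher and 1 lower without GA and 1 higher and 1 lower with GA, again no larger a share than the 15.4% and 14.8% of all tested unigenes without GA and the 14.4% and 14.3% with GA. CBF4 and DDF1, the closest relatives of the CBF genes with unigenes here, had raw counts of 1 to 3 in every library and were not tested. RAP2.1, a repressor that acts downstream of the CBF factors, had raw counts of 39 and 52 in NH-JS2_GA and 29 and 32 in NH-JS2, against 3 and 7 in NH-JS1_GA and 1 and 2 in NH-JS1 (TBIU018842). After 1, the lowest count of the table, was subtracted from each, the ratio of NH-JS2 to NH-JS1 was 79.6 (95% exact interval 13.7 to 3200, counting error only). That of NH-JS2_GA to NH-JS1_GA was 10.8 (5.25 to 25.8), and both differences were called (edgeR adjusted p = 0.000129 and 0.000318). RAV1, a factor that cold induces in Arabidopsis, averaged 672.9 ± 141 scaled counts in NH-JS2 and 1091 ± 84.9 in NH-JS1 (TBIU035494; SD, n = 2 each; log2 fold-change −0.70, edgeR adjusted p = 0.00566). With GA its log2 fold-change was −0.85 (edgeR adjusted p = 0.00204). The other tested RAV1 unigene, TBIU013406, named after its values were seen, was not called in either line comparison. Its log2 fold-changes were −0.13 with GA and −0.01 without GA (edgeR adjusted p = 0.562 and 0.973). The drought- and heat-responsive factor DREB2A had 1 unigene higher without GA, TBIU053783, with a log2 fold-change of 0.94 (edgeR adjusted p = 0.0367) that DESeq2 did not call (adjusted p = 0.361).

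**Figure D4:**
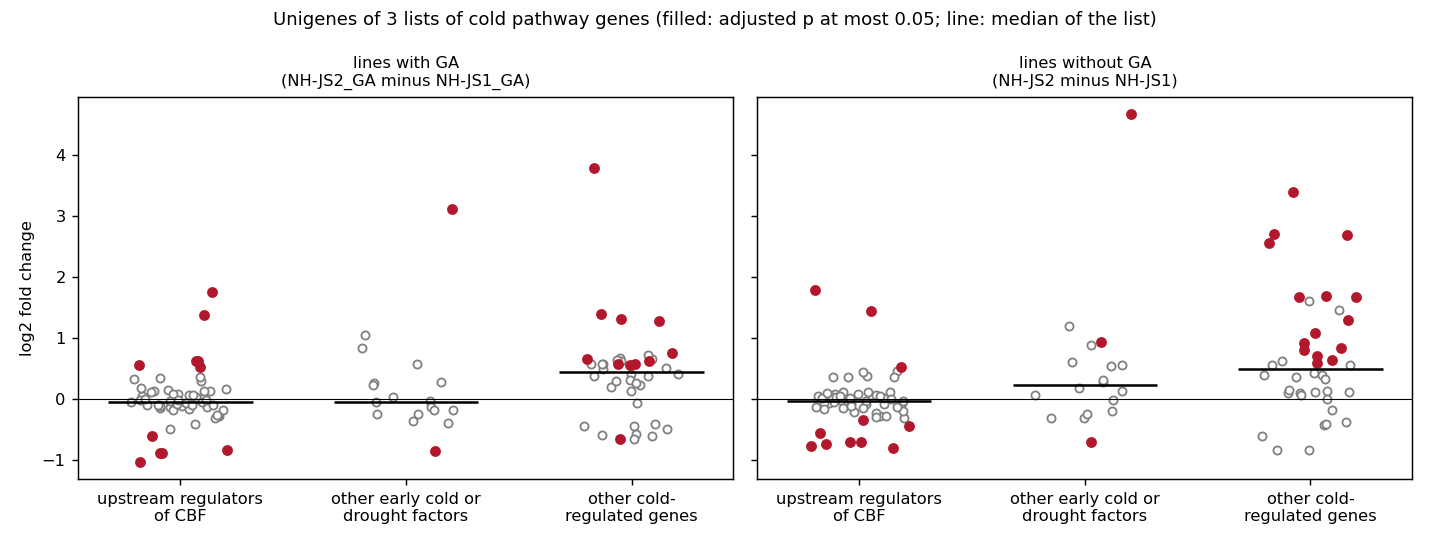
Log2 fold-change between lines of the tested unigenes of 3 lists of cold pathway genes, with GA (left) and without GA (right); filled points have an edgeR adjusted p of at most 0.05 and the line is the median of a list. The list of other cold-regulated genes has its median at 0.45 with GA and 0.50 without GA, and 15 filled points above 0 without GA, from 6 genes.

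Among other cold-regulated genes, most calls were higher in NH-JS2. Of 16 such genes, 14 had unigenes, and 40 unigenes were tested. Without GA, edgeR called 15 of the 40 higher and 0 lower in NH-JS2, while 16 positive and 1 negative change had an edgeR p under 0.05 before adjustment. Among all tested unigenes, 15.4% were called higher and 14.8% lower. With GA it called 10 higher and 1 lower, where 14.4% were called higher and 14.3% lower. These counts depended on the settings. Without GA, 7 were called higher without NH-JS1 replicate 1, 8 without NH-JS1 replicate 2, 9 without NH-JS2 replicate 1 and 9 without TMM, and with GA, 4 were called higher without NH-JS2_GA replicate 1, NH-JS2_GA replicate 2 or NH-JS1_GA replicate 2. Summed over the unigenes of each gene, 2 of 14 genes were called higher and 0 lower at either treatment. The share called among all genes summed in this way is not given here, so this count has no background to be read against. The 15 calls came from 6 genes, with 5 unigenes of COR28, 4 of GRP7, 2 each of ERD14 and RCI2A, and 1 each of RCI2B and GOLS3, and unigenes of a gene may share reads. Over the 40 unigenes the median log2 fold-change was 0.45 with GA and 0.50 without GA, beside −0.01 and 0.00 over all tested unigenes. The 1 called lower with GA was RAB18 TBIU054059, at −0.65 with GA (edgeR adjusted p = 0.0423) and −0.60 without GA (0.0541). The other tested RAB18 unigene, TBIU063030, had 0.58 and 0.63 and was not called. All 3 ADH1 and both tested RD29B unigenes had negative changes in both line comparisons, none called. These genes were named after their values were seen.

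ERD14, a dehydrin of the same acidic class as ERD10, had 1220 and 1122 scaled counts in NH-JS2_GA and 1031 and 853.1 in NH-JS2 for TBIU003476, against 508.1 and 385.5 in NH-JS1_GA and 460.9 and 429.2 in NH-JS1. For this unigene the lines did not overlap, in the direction opposite to ERD10. Its log2 fold-change was 1.39 with GA (SE 0.152, edgeR adjusted p = 0.000149) and 1.08 without GA (SE 0.152, edgeR adjusted p = 0.000677). The ERD14 unigene with the most counts, TBIU015660, had log2 fold-changes of 0.20 with GA and 0.01 without GA (edgeR adjusted p = 0.426 and 0.978), and TBIU006645 had 0.49 and 0.59 (edgeR adjusted p = 0.0976 and 0.0498). RCI2B, a small membrane protein induced by cold, had 254.3 and 240.2 scaled counts in NH-JS2_GA and 289.6 and 207.4 in NH-JS2 for TBIU049358, against 104 and 95.1 in NH-JS1_GA and 86.6 and 68.2 in NH-JS1. Its log2 fold-change was 1.31 with GA (SE 0.188, edgeR adjusted p = 0.000771) and 1.69 without GA (SE 0.192, edgeR adjusted p = 0.000191). The other RCI2B unigenes, TBIU049352 and TBIU049353, had more counts and were called only with GA, with log2 fold-changes of 0.57 and 0.58 with GA (edgeR adjusted p = 0.0221 and 0.0183) and 0.06 and 0.10 without GA (edgeR adjusted p = 0.805 and 0.686). These further ERD14 and RCI2B unigenes were named after their values were seen. RCI2A TBIU049356, whose values were nearly the same as those of RCI2B TBIU049358, had log2 fold-changes of 1.28 with GA and 1.68 without GA (edgeR adjusted p = 0.000917 and 0.000202). Of 5 tested RCI2A unigenes, edgeR called 1 higher with GA and 2 higher without GA. RCI2A TBIU053251, named after its values were seen, had log2 fold-changes of −0.41 with GA and −0.18 without GA (edgeR adjusted p = 0.11 and 0.476).

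GOLS3, which makes galactinol for raffinose sugars and is a CBF target in Arabidopsis, had raw counts of 35 and 39 in NH-JS2_GA and 19 and 29 in NH-JS2, against 4 and 1 in NH-JS1_GA and 2 and 4 in NH-JS1 (TBIU014483). With 1 subtracted from each count, the ratio of NH-JS2 to NH-JS1 was 15.5 (95% exact interval 5.66 to 59.3, counting error only), and that of NH-JS2_GA to NH-JS1_GA was 23.3 (7.66 to 116). Both were called (edgeR adjusted p = 0.0016 and 0.000813). COR28 and GRP7, which are tied to the circadian clock, differed strongly between the 2 libraries of NH-JS2. All libraries were collected at 10 in the morning, and the cause of this spread was not tested. COR28 TBIU042217 and GRP7 TBIU057346, picked after their values were seen, are examples of the spread. COR28 TBIU042217 had 30.0 and 23.1 scaled counts in NH-JS2_GA and 55.0 and 24.9 in NH-JS2, against 14.1 and 21.0 in NH-JS1_GA and 5.05 and 7.37 in NH-JS1. None of the 5 COR28 unigenes called without GA was called with GA, where TBIU042217 had a log2 fold-change of 0.58 (edgeR adjusted p = 0.342), TBIU042215 −0.65 (0.209) and TBIU042216 −0.07 (0.906), and the difference of GA effects was not called for any of them. GRP7 TBIU057346 had 9005 and 8160 scaled counts in NH-JS2_GA and 15840 and 9791 in NH-JS2, against 5845 and 4314 in NH-JS1_GA and 6961 and 6530 in NH-JS1. In each group most of the 40 tested unigenes of the list were lower in replicate 2 than in replicate 1: 30 in NH-JS2_GA, 33 in NH-JS2, 27 in NH-JS1_GA and 25 in NH-JS1, with median ratios of 0.933, 0.729, 0.797 and 0.966. Among all tested unigenes 49.5% to 50.7% were lower. For GA, edgeR and DESeq2 called 0 unigenes of the 3 lists in either line, whereas before adjustment an edgeR p under 0.05 was found for 3 higher and 6 lower unigenes in the NH-JS2 comparison and for 7 higher and 2 lower unigenes in that of NH-JS1.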

How the data were processed

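The authors trimmed reads of 101 bp, assembled unigenes and mapped the reads with at most 2 mismatches, and the submitters' processing notes name Bowtie2 2.1.0 and TopHat. The values used here are the deposited raw counts of reads per unigene, in which the lowest value is 1, and the percent identity that the authors deposited for each unigene's best BLASTp match. Normalized counts and the authors' log2 fold changes of 4 comparisons stand in the same table and were not used.

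Totals were 23757588 to 34165272 counts a library. With edgeR 4.0.16 in R 4.3.3, counts were scaled by TMM, filtered with filterByExpr (minimum count 10) and fitted with 1 mean per group over all 8 libraries, followed by glmQLFTest and Benjamini-Hochberg adjustment over 65934 unigenes. DESeq2 1.42.0 was one alternative, and the code was tested on simulated data. The others were no filter, no TMM, only the groups compared, a replicate block, each library left out, 1 subtracted from every count, and counts summed per Arabidopsis match. The block was an alternative because the labels number the replicates without naming a shared batch. With 2 libraries a group, p-values rest on the spread between pools of 3 plants within a group, estimated jointly over all groups in the fit. They are thus not a measure of the spread in only the groups compared. Intervals of count ratios are exact (Clopper-Pearson) and cover counting error only.

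Named were all member unigenes, at most 4 called unigenes a pathway list and comparison by smallest adjusted p, and the 3 annotated genes most like the most abundant KIN or COR unigene by Pearson's r of log2 CPM (prior count 2). Members and lists were chosen with earlier results of these data known. Gene symbols follow the Arabidopsis match, and no coordinates were used.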

Additional observations from a re-analysis of the deposited data

How the results depend on the processing

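All p-values rest on 2 libraries a group, and unigenes of a gene can share reads. KIN2 TBIU057664 and TBIU057665 and COR15B TBIU046745 kept their line calls under every alternative that tested single unigenes, and no alternative called a member for GA or for the difference of GA effects. Of 846 alternative log2 fold changes of single unigenes, 801 kept their direction and their side of the threshold, 22 reversed, 22 lost a call and 1 gained one; the cause was not tested. The replicate numbers pair nothing in the labels, the correlation of replicate differences between groups was −0.0807 to 0.123, and with the replicate block the 61 log2 fold changes of single unigenes kept direction and call and the members called stayed at 2 higher and 4 lower with GA and 1 higher and 5 lower without GA. Among the other cold-regulated genes, 1 unigene lower with GA became 3 with that block or with DESeq2.

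Members called in the line comparison with GA were 1 higher and 2 lower once counts were summed per match, where there are 4 genes in place of 8 unigenes, and 1 to 3 higher and 2 to 5 lower when a library was left out. Without GA, 2 were lower once summed, and 3 to 5 were lower when a library was left out. Over the 3 pathway lists, 17 higher and 7 lower with GA became 3 higher and 2 lower once summed, 10 higher without TMM, and 6 to 22 higher and 5 to 10 lower when a library was left out. Without GA, 20 higher and 9 lower became 4 higher and 3 lower once summed, 12 higher without TMM, 4 lower with DESeq2, and 9 to 24 higher and 4 to 10 lower when a library was left out. The counts for summed genes, of members and of lists, stand without the share called among all genes so summed, which is not given here. DESeq2 called more of all unigenes for GA, 60 higher and 138 lower in NH-JS2 (edgeR 16 and 26) and 58 higher and 92 lower in NH-JS1 (edgeR 26 and 28), and 22 higher for the difference of GA effects (edgeR 9).

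The library left out mattered for these counts. With GA, 1 member was higher without NH-JS1_GA replicate 2, 2 were lower without NH-JS1_GA replicate 1 or NH-JS2_GA replicate 2, and the third higher member without NH-JS2_GA replicate 2 was LTI78 TBIU018625; the pathway lists gave 6 higher without NH-JS1_GA replicate 2 or NH-JS2_GA replicate 2 and 7 without NH-JS2_GA replicate 1. Without GA, 3 members were lower without replicate 1 of NH-JS2 or NH-JS1, and the pathway lists gave 13 higher without NH-JS2 replicate 1, 9 higher and 4 lower without NH-JS1 replicate 1, and 10 higher and 5 lower without NH-JS1 replicate 2.

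Signs reversed only for values near 0 that were never called. Without TMM, the difference of GA effects was 0.017 for ERD10 TBIU003829, 0.034 for TBIU065834 and 0.043 for TBIU065835, and the GA effect of TBIU003829 in NH-JS2 was 0.0022. With a library left out, that difference ran from −0.23 to 0.18 for TBIU003829, −0.26 to 0.21 for TBIU065834, −0.24 to 0.23 for TBIU065835, −0.16 to 0.52 for KIN2 TBIU057664 and −0.17 to 0.52 for TBIU057665. The GA effect of TBIU003829 ran from −0.22 to 0.073 in NH-JS2 and −0.26 to 0.15 in NH-JS1, and that of COR15B TBIU020988 in NH-JS2 from −0.22 to 0.32.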
